A study of Mus musculus with 3 samples.

Results

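The lysosomal hydrolases and membrane proteins described here are 32 genes, chosen by symbol from a list of cathepsins, other lysosomal hydrolases, their activators and lipid-transfer proteins, and proteins of the lysosomal membrane. They were 32 of the 31053 genes counted, and the rule names symbols and uses no measured value. Every symbol was found with a protein-coding gene of its own in the mouse annotation. Over the 3 sections, 31 of the 32 had a mean of at least 10 CPM, which are counts scaled to a total of 1000000 per section or region, and entered the ratios between sections. The exception was Gla, which encodes alpha-galactosidase A, at 6.11, 6.25 and 7.73 CPM in the order used below.

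The study placed fresh frozen sections of mouse brain, 10 µm thick, on Visium arrays, which capture messenger RNA on barcoded spots and count molecules by unique molecular identifiers (UMIs). The sections, 1 in each of 3 groups, were always given in the order Y-Ctrl, O-Ctrl and O-Ex. All came from strain C57BL/6J, with no transgene or deletion named: Y-Ctrl and O-Ctrl carry the treatment label Control, and O-Ex the label Exercise. The series asks how exercise acts on the aging brain, so the prefixes Y and O were read as young and old, while the sources used here state neither ages, sex and number of animals nor the kind and length of exercise. The molecule is labelled as nuclear RNA, although whole sections were placed on the arrays. With 1 section a group, no difference has replicates behind it: section, animal and condition cannot be told apart, and intervals are exact 95% Poisson intervals that cover counting error only.

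Lysosomes are acidic organelles in which hydrolases break down proteins, glycans and lipids that arrive by endocytosis, phagocytosis and autophagy. Most of the hydrolases work only at low pH and need activator proteins or prior cleavage by another protease, while heavily glycosylated membrane proteins line the organelle and shield it. In brain, inherited loss of many of these enzymes causes storage disease of neurons, and microglia, choroid plexus epithelium and macrophages are rich in lysosomes.

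The transcription factor TFEB is known to bind the CLEAR motif, built around the core CACGTG, near the start of many lysosomal genes. RefSeq promoter windows (GRCm38.p6, 250 bases before to 50 after the start) were held for 27 of the 32 genes. The core CACGTG, a palindrome read the same on both strands, lay in the windows of 9 of these 27 (33.3%), against 8.09% of all 27025 genes with a window. The 9 were Ctsa, Ctsd, Ctsf, Ctsl, Gaa, Gla, Glb1, Lamp1 and Mcoln1. The longer TCACGTGA, which holds the core, lay in 4 of them (Ctsa, Ctsd, Gla and Mcoln1), against 1.12% of all genes. The same 8 bases with a G before and a C after lay in 0 of the 27, against 0.370% of all genes. A match is a run of letters and not a site shown to be bound, and no match says only that the letters are not in the window. The 110 bases before the start are shown for Lamp1, which held 4 copies of the core, and for 4 of the other 8 genes, from the cathepsins, the glycosidases and the membrane proteins. The start is that of the RefSeq window and can differ from the gene positions given below, which come from GENCODE. By GENCODE the stretches of Ctsd and Ctsa lie inside the gene, and those of Glb1 and Mcoln1 do so in part. Each is written 5′ to 3′ along its gene, with CACGTG in capitals. They lie at chr8:13159051-13159160 (plus strand), chr7:142387828-142387937 (minus strand), chr9:114400968-114401077 (plus strand), chr2:164833663-164833772 (plus strand) and chr8:3500409-3500518 (plus strand).
Lamp1: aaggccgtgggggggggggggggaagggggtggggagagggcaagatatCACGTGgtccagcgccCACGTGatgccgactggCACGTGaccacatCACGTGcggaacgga
Ctsd: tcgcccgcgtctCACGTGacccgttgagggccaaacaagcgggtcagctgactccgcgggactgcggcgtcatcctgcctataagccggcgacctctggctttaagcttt
Glb1: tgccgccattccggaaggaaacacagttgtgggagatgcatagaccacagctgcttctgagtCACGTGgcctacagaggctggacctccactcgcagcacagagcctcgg
Ctsa: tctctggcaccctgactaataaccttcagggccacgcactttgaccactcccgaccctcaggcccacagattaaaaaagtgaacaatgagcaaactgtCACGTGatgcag
Mcoln1: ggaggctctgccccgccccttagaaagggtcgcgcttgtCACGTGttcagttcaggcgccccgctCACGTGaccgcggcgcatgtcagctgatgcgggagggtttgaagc
The copies of Lamp1 lie within its last 61 bases before the start, and Mcoln1 has 2 copies in the stretch shown. Outside the stretch shown, Ctsd has a second copy 245 bases before the start, and Ctsa has a second copy soon after the start.

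The sections held 53196124 to 62348064 UMIs. Spots with at least 3000 UMIs were used, 3409, 3498 and 3332 of the 4992 barcodes, with a median of 15718, 14900 and 13685 UMIs. The 3 libraries share all 4992 barcodes, which is the fixed list of the array. Mitochondrial transcripts took 19.7%, 19.7% and 17.8% of the UMIs. Spots were clustered into 22 groups from expression alone, with the 32 genes left out of the clustering. Of these groups, 12 had at least 50 spots in every section and are called shared regions. They took a name only where their leading genes held markers of that region, by a rule set with the clusters in view, and are otherwise named by their leading genes.

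Together the 32 genes made up 3682, 4262 and 4744 CPM, a sum that Psap, Ctsb, Ctsd and Lamp1 dominate. In the O-Ctrl section 29 of 31 genes were higher than in Y-Ctrl, where 45.6% of the 9013 genes with at least 10 CPM were higher. At least 1.2-fold higher were 7 (2.44% of all genes) and at least 1.2-fold lower 0 (2.27%). The median log2 ratio was 0.21 over the 31 genes and -0.01 over all genes. A ratio here is that of CPM plus 5 CPM, which understates the difference of genes with few counts. Because sections need not hold the same share of each region, a region-matched ratio was also taken as the mean log2 ratio over the 12 shared regions. By it 30 of 31 genes were higher in O-Ctrl (50.9% of all genes), with a median of 0.14 against 0.00, and 3 were at least 1.2-fold higher (1.61% of all genes).

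Between O-Ex and O-Ctrl the same set was closer to the rest of the genes. Over whole sections 27 of 31 genes were higher in O-Ex (69.8% of all genes), 5 of them at least 1.2-fold (5.84%), and 0 were at least 1.2-fold lower (0.821%). The median was 0.14 against 0.06 over all genes. Region-matched, 28 of 31 were higher (74.4% of all genes), 4 of them at least 1.2-fold (5.47%), with a median of 0.16 against 0.08. Scaling by trimmed mean of M-values (TMM) in place of total UMIs left 22 of 31 higher over whole sections and 20 region-matched, with 45.7% and 50.1% of all genes higher. Without the choroid plexus spots, an alternative chosen after seeing the data, 26 of 31 were higher (73.1% of all genes) and 0 at least 1.2-fold (5.60%), with a median of 0.09 against 0.07 over all genes. The median of the 31 genes was 0.0821 above that of all genes by total UMIs and 0.0731 above it under TMM scaling, which moves all genes alike. That distance was 0.0174 without the choroid plexus spots and -0.0176 without all border regions (choroid plexus, ependyma, meninges) and unnamed regions.

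Between O-Ex and Y-Ctrl 31 of 31 genes were higher (63.6% of all genes), 21 of them at least 1.2-fold (9.18%) and 2, Ctsd and Ctsz, at least 1.5-fold (1.33%), while 0 were at least 1.2-fold lower (2.78%). The median was 0.32 against 0.05 over all genes. Region-matched, 31 of 31 were higher (71.4%), 15 at least 1.2-fold (9.91%) and 2 at least 1.5-fold (0.577%), with a median of 0.25 against 0.08. Under TMM scaling 28 of 31 were higher over whole sections (43.9% of all genes) and 28 region-matched (49.97%). The 3 comparisons share sections with each other, so they are given side by side and are not independent.

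**Figure D1:**
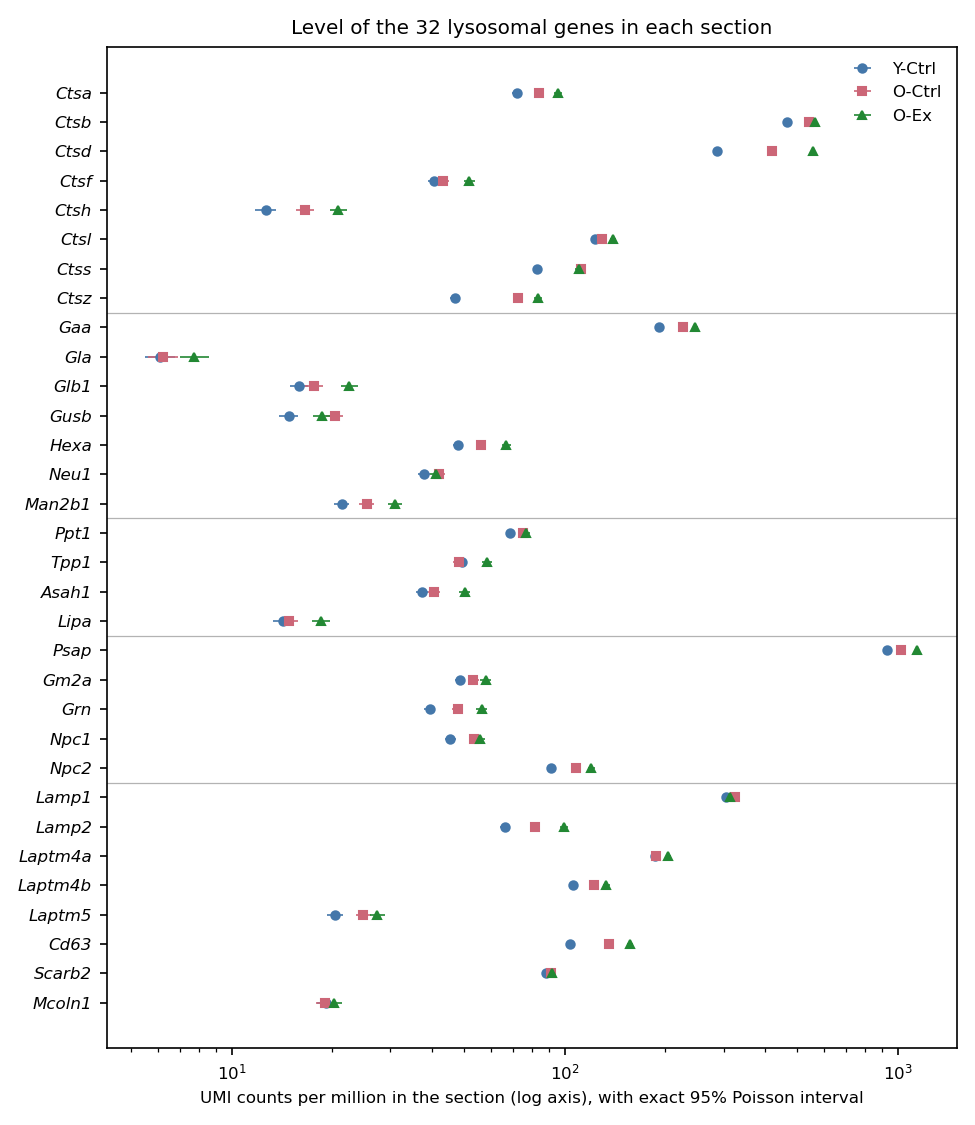
Level of each of the 32 genes in CPM (log axis) in the Y-Ctrl, O-Ctrl and O-Ex sections, 1 section a group, with exact 95% Poisson intervals that cover counting error only. Ctsd stands at 286, 418 and 555 CPM, while the points of Lamp1, Scarb2 and Mcoln1 lie close together.

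The cathepsins, the proteases of the lysosome, summed to 1128, 1417 and 1622 CPM, and all 8 were higher in O-Ctrl than in Y-Ctrl, both over whole sections and region-matched. Ctsd encodes cathepsin D, the main aspartic protease of the lysosome (chr7:142375911-142388038, minus strand, mm10). Its levels were 286, 418 and 555 CPM, with intervals of 282 to 291, 413 to 424 and 549 to 561 that lie apart. The ratio was 1.45-fold for O-Ctrl over Y-Ctrl, 1.32-fold for O-Ex over O-Ctrl and 1.92-fold for O-Ex over Y-Ctrl. Region-matched it was 1.30-fold, 1.26-fold and 1.64-fold, and Ctsd was higher in 12 of 12 shared regions in each of the 3 comparisons. Without the choroid plexus spots the log2 ratio of Ctsd between O-Ex and O-Ctrl was 0.24, against 0.40 with them, and without border and unnamed regions it was 0.13. Another annotated gene overlaps Ctsd on its own strand, as one does Ctsl, Ctss and Glb1, and the assignment of reads in these overlaps is not stated. In tissue spots, fewer cells of a type and less RNA per cell cannot be told apart, here and below.

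Ctsz encodes cathepsin Z, a carboxypeptidase abundant in myeloid cells (chr2:174427493-174439039, minus strand). It stood at 46.9, 72.6 and 83.2 CPM. Its 1.49-fold ratio between the control sections was the highest of the 31 genes, and it was higher in O-Ctrl in 12 of 12 shared regions. Between O-Ex and O-Ctrl it was 1.14-fold higher, and without border and unnamed regions its log2 ratio there was 0.0051. Ctss encodes cathepsin S, an elastase-like protease of microglia and macrophages that also works outside lysosomes. It stood at 82.5, 112 and 110 CPM, so both O sections lay above Y-Ctrl and close to each other, with a ratio of 1.33-fold and then 0.988-fold. Ctsb, which encodes the cysteine protease cathepsin B, stood at 464, 541 and 566 CPM. It was higher in O-Ctrl than in Y-Ctrl in 12 of 12 regions, while its ratio between O-Ex and O-Ctrl, 0.07 on the log2 scale, turned to -0.02 under TMM scaling.

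The other 4 cathepsins were also higher in O-Ex than in Y-Ctrl over whole sections. Ctsa, the protective protein that also stabilises beta-galactosidase and neuraminidase, stood at 71.7, 84.0 and 95.5 CPM, with each section above the one before. Ctsh, an aminopeptidase, stood at 12.7, 16.6 and 20.9 CPM, in the same order. Ctsf, another cysteine protease, stood at 40.4, 43.2 and 51.7 CPM, so that O-Ex lay apart from both controls, whose intervals overlap. Ctsl, which encodes cathepsin L, varied least among the 8, at 124, 130 and 140 CPM, and its region-matched difference between O-Ex and O-Ctrl turned from 0.04 to -0.04 under TMM scaling. Over whole sections without border and unnamed regions, the log2 ratio of O-Ex to O-Ctrl was 0.08 for Ctsa and 0.06 for Ctsh. It was 0.28 for Ctsf and 4.3e-05 for Ctsl, against 0.08 over all genes.

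The glycosidases, which strip sugars from glycolipids and glycoproteins, summed to 335, 395 and 434 CPM. The 6 with at least 10 CPM were all higher in O-Ctrl than in Y-Ctrl by both kinds of ratio. Gaa, the acid alpha-glucosidase that breaks down glycogen, stood at 192, 227 and 246 CPM. Hexa, the alpha subunit of beta-hexosaminidase, stood at 47.9, 56.2 and 66.9 CPM and was higher in O-Ex than in O-Ctrl in 12 of 12 shared regions. Man2b1, which encodes lysosomal alpha-mannosidase, stood at 21.4, 25.5 and 31.0 CPM. In these 3 genes the sections stood in the same order, with O-Ex the highest and intervals that lie apart.

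Gusb, which encodes beta-glucuronidase, did not follow that order, at 14.9, 20.4 and 18.7 CPM, with overlapping intervals in the O sections. It was 1.28-fold higher in O-Ctrl than in Y-Ctrl, and lower in O-Ex than in O-Ctrl in 8 of 12 regions. Neu1, the sialidase that removes sialic acids, stood at 37.8, 42.1 and 41.1 CPM, again with overlapping intervals in the O sections. Glb1, which encodes beta-galactosidase and is often used as a mark of senescent cells through its activity, stood at 15.9, 17.7 and 22.6 CPM. Its intervals overlap between the control sections and lie apart for O-Ex, where it was 1.21-fold above O-Ctrl over whole sections and 1.13-fold region-matched.

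The lipid enzymes and other hydrolases were close to each other in the control sections and higher in O-Ex, at a sum of 169, 178 and 204 CPM. Tpp1, the tripeptidyl peptidase lost in a childhood storage disease, stood at 49.0, 48.1 and 58.6 CPM. The control sections overlap within their intervals and O-Ex was higher than O-Ctrl in 11 of 12 regions, a log2 ratio of 0.26. Asah1, acid ceramidase, stood at 37.4, 40.5 and 50.2 CPM and was higher in O-Ex than in O-Ctrl in 12 of 12 regions. Lipa, the acid lipase that frees cholesterol from its esters, stood at 14.3, 14.8 and 18.6 CPM, again with overlapping controls and a higher O-Ex. Ppt1, which removes palmitate from proteins, stood at 68.6, 74.9 and 76.5 CPM and differed least of the 4 between O-Ex and either control. Its log2 ratio between O-Ex and O-Ctrl turned to -0.05 under TMM scaling. Between the controls it differed most of the 4, at a log2 ratio of 0.12, with intervals that lie apart, while those of the O sections overlap. Over whole sections without border and unnamed regions, the log2 ratio of O-Ex to O-Ctrl was 0.15 for Tpp1 and 0.22 for Asah1. It was 0.12 for Lipa and 0.04 for Ppt1, against 0.08 over all genes.

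Activators, cofactors and lipid-transfer proteins summed to 1154, 1285 and 1435 CPM. Psap encodes prosaposin, the precursor of the saposins that present sphingolipids to their hydrolases, and it contributed the most UMIs of the 32 genes. It stood at 930, 1022 and 1144 CPM and was higher in O-Ctrl than in Y-Ctrl in 12 of 12 regions, though by 1.10-fold only. Grn, which encodes progranulin, a lysosomal glycoprotein, stood at 39.3, 47.7 and 56.3 CPM, and its region-matched ratio between O-Ex and O-Ctrl, 1.23-fold, was the second highest of the 31 genes after Ctsd. Gm2a, the activator that hands GM2 ganglioside to beta-hexosaminidase, stood at 48.5, 53.3 and 57.9 CPM, and region-matched its log2 ratio of O-Ex to O-Ctrl was only 0.01, or -0.07 under TMM scaling. Over whole sections that of Gm2a was 0.11, and -0.0016 without border and unnamed regions. Npc1 and Npc2 pass cholesterol out of the lysosome together, the former in its membrane and the latter in its lumen. Npc1 stood at 45.3, 53.4 and 55.6 CPM, and over whole sections its log2 ratio of O-Ex to O-Ctrl turned from 0.05 to -0.03 under TMM scaling. Npc2 stood at 90.7, 108 and 120 CPM, but region-matched its log2 ratio between O-Ex and O-Ctrl was -0.00 and it was higher in only 4 of 12 regions. Over whole sections its log2 ratio there was 0.14, but -0.08 without the choroid plexus spots and -0.15 without border and unnamed regions.

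The 8 membrane proteins summed to 895, 987 and 1049 CPM, and Lamp2 and Cd63 had the highest whole-section ratios among them. Lamp2, which encodes a glycoprotein of the lysosomal membrane with a part in chaperone-mediated autophagy, stood at 66.1, 81.2 and 99.3 CPM. Its ratio was 1.21-fold for O-Ctrl over Y-Ctrl and again 1.21-fold for O-Ex over O-Ctrl, but the latter was 0.08 on the log2 scale without the choroid plexus spots. Without border and unnamed regions it was -0.02. Cd63, a tetraspanin of late endosomes and exosomes, stood at 104, 136 and 157 CPM. It was 1.30-fold higher in O-Ctrl than in Y-Ctrl over whole sections, while its 1.15-fold ratio between O-Ex and O-Ctrl was 1.02-fold region-matched, which TMM scaling turned to -0.06 on the log2 scale. Over whole sections Cd63 was at -0.14 there without border and unnamed regions.

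Lamp1, the most widely used marker protein of lysosomes, stood at 304, 325 and 315 CPM, with O-Ctrl the highest. Scarb2, the receptor that carries glucocerebrosidase to lysosomes, stood at 88.2, 90.9 and 91.9 CPM, with overlapping intervals in all 3 sections. Mcoln1, the calcium channel of the lysosomal membrane, stood at 19.2, 19.1 and 20.2 CPM, again with overlapping intervals. Under TMM scaling all 3 were slightly lower in O-Ex than in Y-Ctrl, at -0.04 for Lamp1, -0.03 for Scarb2 and -0.01 for Mcoln1. Of the Laptm proteins, small membrane proteins that sort cargo to lysosomes, Laptm4a stood at 187, 188 and 205 CPM. Laptm4b stood at 106, 122 and 133 CPM, and Laptm5, which is made mainly by blood-derived and microglial cells, at 20.4, 24.9 and 27.4 CPM. Laptm4a was thus level between the controls, while Laptm4b and Laptm5 were lowest in Y-Ctrl, and the region-matched ratios of Laptm4a and Laptm4b between O-Ex and O-Ctrl were below 0 under TMM scaling.

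**Figure D2:**
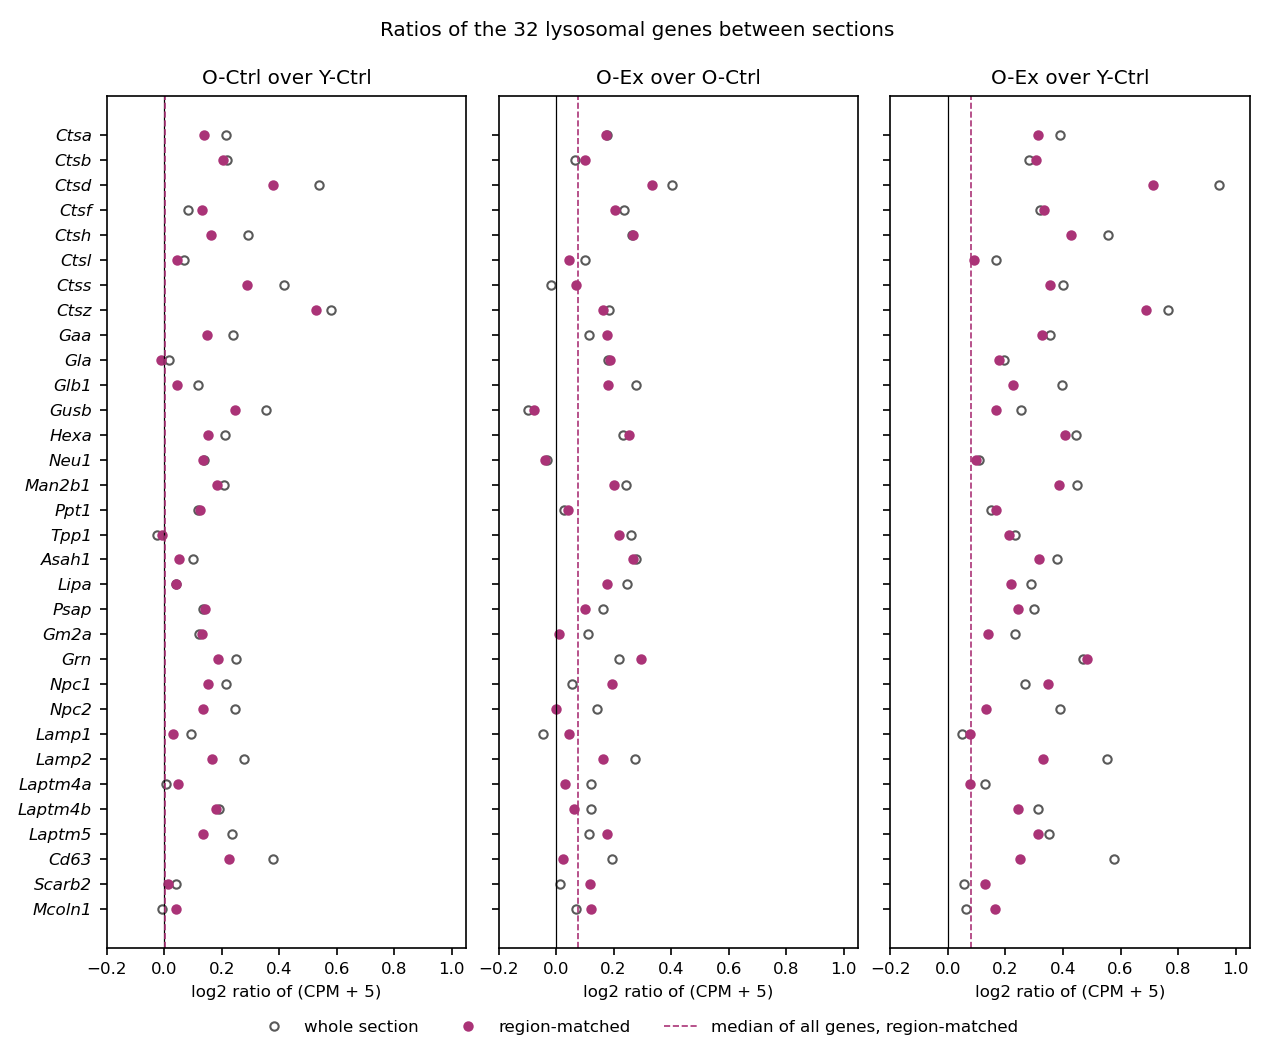
Log2 ratio of CPM plus 5 CPM for each of the 32 genes in the 3 comparisons between sections, over whole sections (open points) and as the mean of the 12 shared regions (filled points), with the region-matched median of all genes as a dashed line. Most filled points lie right of the dashed line in O-Ctrl over Y-Ctrl and O-Ex over Y-Ctrl, with Ctsd and Ctsz farthest out.

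Across the brain the genes had strong regional patterns, described over the 18 spot groups with at least 20 spots in every section. Counts of genes by their highest or lowest group, here and below, were not taken over all genes. They are therefore not read as traits of the set. The choroid plexus, the secretory epithelium that makes cerebrospinal fluid, was the highest group in all 3 sections for 14 of the 32 genes. Ctsd there was at 1208, 1483 and 2119 CPM, Cd63 at 513, 638 and 710 CPM and Psap at 2082, 2235 and 2601 CPM. Npc2 was at 349, 424 and 562 CPM and Lamp2 at 353, 452 and 484 CPM. These levels lay well above those of the whole sections, in which the choroid plexus took 45, 37 and 98 spots. The 9 choroid plexus markers found summed to 4678, 5603 and 14162 CPM over whole sections, and were highest in O-Ex like its spots. Leaving those spots out, as given for Ctsd, Lamp2 and Npc2, takes out the spots but not the choroid plexus markers counted in other groups. These markers summed to 418, 524 and 7570 CPM in the amygdala and piriform group, a shared region. In the ependyma they summed to 8220, 8936 and 23742 CPM. Of the 18 groups, they were lower in O-Ex than in O-Ctrl only in white matter and the group led by Tshz2 and Pvalb. The full part of the choroid plexus in whole-section and region-matched values was thus not measured.

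White matter was the highest group in all 3 sections for Ctss, Npc1, Lamp1, Laptm5 and Scarb2. Lamp1 stood there at 826, 894 and 807 CPM, against 192, 192 and 211 CPM in the upper cortical layers. Npc1 stood there at 191, 215 and 225 CPM, against 27.3, 23.8 and 27.5 CPM in the upper cortical layers. Both genes are thus set apart by region far more than by section.

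Some members had patterns of their own. Gaa was highest in the hypothalamus led by Pmch and Hcrt, at 509, 545 and 572 CPM, and lowest in white matter, at 97.7, 116 and 125 CPM, in all 3 sections. Grn was highest in the meninges and Laptm4a in the ependyma in all 3. Neu1 had its highest levels in the hippocampal CA2 and CA3 groups or the dentate gyrus, at 66.1, 77.6 and 67.9 CPM, while it stood at 22.9, 32.1 and 25.4 CPM in white matter. Mcoln1 likewise had its highest level in the dentate gyrus or CA1. In all, 22 of the 32 genes had the same highest group in all 3 sections, and the 10 others were Ctsb, Ctsf, Ctsh, Ctsz, Gla, Gusb, Hexa, Neu1, Ppt1 and Mcoln1. The lowest group was the same in all 3 sections for 8 genes, 4 of them in hippocampal CA1.

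**Figure D3:**
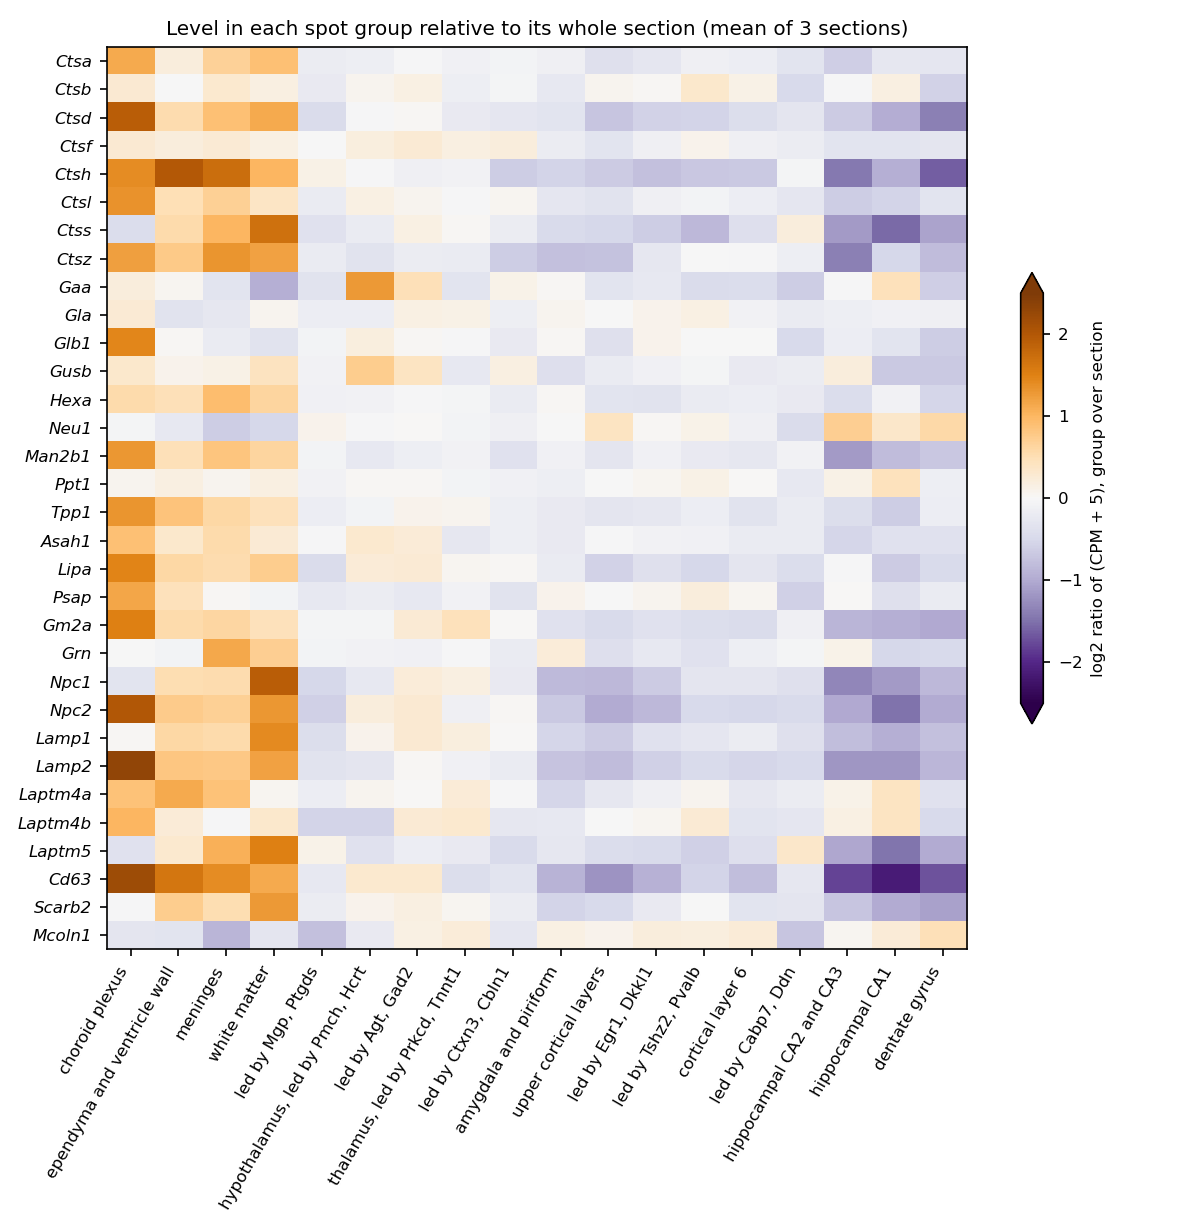
Level of each of the 32 genes in 18 spot groups relative to its own whole section, as log2 ratio of CPM plus 5 CPM, averaged over the 3 sections (orange higher, purple lower). Choroid plexus, ependyma, meninges and white matter are orange for most genes, while Gaa, Neu1 and Mcoln1 are purple in white matter.

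Of the 18 spot groups, the summed level differed most between the control sections in white matter. The 32 genes summed there to 5214, 7508 and 7420 CPM, with intervals of 5144 to 5285, 7430 to 7587 and 7324 to 7518, a sum 44.0% higher in O-Ctrl than in Y-Ctrl. Of the 31 genes, 30 were higher in O-Ctrl (54.7% of all genes in white matter), 19 of them at least 1.2-fold (15.3%). Scarb2 was the exception, at 233, 226 and 224 CPM. Among the 12 shared regions, 16 of the 32 genes had their highest ratio of O-Ctrl over Y-Ctrl in white matter. The share of all genes with their highest ratio there was not computed, so this count is not read as a trait of the set. Between O-Ex and O-Ctrl, in contrast, 16 of 31 were higher in white matter (61% of all genes), 3 of them at least 1.2-fold (16.8%), and the median log2 ratio was 0.00 against 0.06 over all genes.

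Ctsd in white matter stood at 462, 1198 and 1256 CPM, a 2.57-fold ratio between the controls. Ctsz stood at 92.6, 204 and 204 CPM, a 2.14-fold ratio. Hexa stood at 56.1, 109 and 118 CPM. These 3 enzymes were thus far lower in the Y-Ctrl section, with little between the O sections. Ctsh, at 23.6, 47.2 and 48.4 CPM, and Grn, at 56.4, 97.9 and 93.6 CPM, had the same shape. Laptm5 stood at 47.5, 88.5 and 110 CPM, so O-Ex lay above O-Ctrl. Cd63, at 228, 360 and 293 CPM, lay between the other sections in O-Ex. It, Gusb and Neu1 were at least 1.2-fold lower there in O-Ex than in O-Ctrl, 3 of 31 genes beside 585 of all 8647. Without white matter, an alternative chosen after seeing the data, 30 of 31 genes were higher in O-Ctrl region-matched (50.4% of all genes), with a median of 0.11 against 0.14 with it.

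Markers of several cell types also differed between the sections in white matter, and not all in the direction of the lysosomal genes. Over the region, 15 microglial markers summed to 1110, 2148 and 2239 CPM, and 8 markers of border macrophages and monocytes to 58.1, 194 and 221 CPM. The 5 reactive astrocyte markers summed to 370, 1671 and 1970 CPM, the 12 oligodendrocyte markers to 45661, 39834 and 43102 CPM, and the 5 blood markers to 453, 2209 and 1141 CPM. Markers used to name the choroid plexus summed there to 3418, 8615 and 2766 CPM and those of the meninges to 2005, 4070 and 3793 CPM. Over whole sections the microglial list summed to 497, 688 and 703 CPM. Region-matched, 11 of its 14 tested genes were higher in O-Ctrl than in Y-Ctrl (50.9% of all genes). Of the 14, 6 were at least 1.2-fold higher (1.61% of all genes) and 1 was at least 1.2-fold lower (83 of all 9013). Its 2 most abundant genes were C1qa, at 68.5, 119 and 128 CPM, and C1qb, at 73.3, 115 and 126 CPM. None of these markers was at 0 in any section. The part of these cells in the lysosomal values was not tested.

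In the upper cortical layers the genes hardly differed between the controls. They summed to 3301, 3391 and 3637 CPM, and 16 of 29 were higher in O-Ctrl (46% of all genes there), while 21 of 29 were higher in O-Ex than in O-Ctrl (62.8%). In cortical layer 6, 25 of 30 were higher in O-Ctrl (53.6%) and 22 of 30 in O-Ex over O-Ctrl (58.7%). In the hypothalamus led by Pmch and Hcrt the numbers were 26 of 31 (47.2%) and 20 of 31 (65.4%), and in the choroid plexus 24 of 31 (47.9%) and 25 of 31 (46%). In the upper cortical layers Ctss was lower in O-Ctrl, at 74.2, 63.5 and 67.6 CPM, and Ctsd stood at 228, 237 and 277 CPM. Summed over the 32 genes, O-Ctrl was above Y-Ctrl in 17 of the 18 spot groups, the dentate gyrus being the exception at 2902, 2619 and 3026 CPM. The intervals of the control sections overlap in the upper cortical layers, in CA2 and CA3 and in the group led by Mgp and Ptgds. O-Ex was above O-Ctrl in 17 of the 18, white matter being the exception, and the intervals of those 2 sections overlap in white matter, in the thalamus and in the group led by Ctxn3 and Cbln1.

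In the meninges, the membranes that cover the brain, the summed level differed most between O-Ex and O-Ctrl of the 18 spot groups. The genes summed to 4868 CPM (4724 to 5016), 5818 (5670 to 5969) and 7906 (7734 to 8081). Of 30 genes with at least 10 CPM there, 24 were higher in O-Ctrl than in Y-Ctrl (46% of all genes), 11 of them at least 1.2-fold (21.8%), and 29 were higher in O-Ex than in O-Ctrl (60.1% of all genes there), 19 of them at least 1.2-fold (32%). Ctsd stood at 433, 681 and 1438 CPM, Laptm5 at 31.5, 48.5 and 109 CPM and Grn at 83.4, 99 and 162 CPM, each highest in O-Ex. Markers of other cells differed in the same spots: border macrophages and monocytes summed to 261, 375 and 562 CPM, microglia to 985, 1530 and 2132 CPM, and oligodendrocytes to 5655, 9978 and 14361 CPM. Reactive astrocyte markers summed there to 832, 1896 and 2683 CPM and blood markers to 18868, 11930 and 14101 CPM. These spots number only 55, 80 and 75, and the part of those cells in the difference was not tested. Without the meninges, an alternative chosen after seeing the data, 28 of 31 genes were higher in O-Ex than in O-Ctrl region-matched (74.1% of all genes), 1 of them at least 1.2-fold (4.94%).

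**Figure D4:**
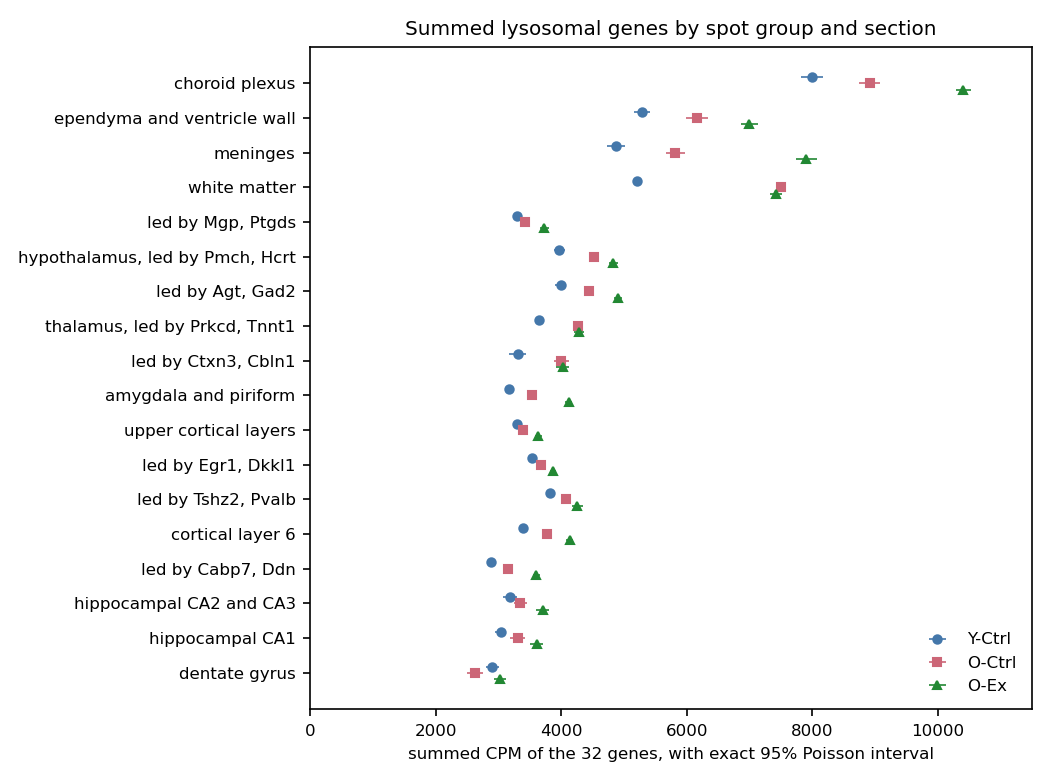
Summed CPM of the 32 genes in each of 18 spot groups and in each section, with exact 95% Poisson intervals. White matter stands at 5214 CPM in the young section against 7508 and 7420 CPM in the old ones, and the meninges reach 7906 CPM in O-Ex.

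Spots were also grouped by their UMIs of the microglial list, which holds none of the 32 genes, after each spot had been thinned to 3000 UMIs. These groups are ranges and not cell types. Spots with 0 microglial UMIs held 10.7, 11.5 and 12.9 UMIs of the 32 genes per spot. Spots with 6 or more held 15.3, 22.4 and 23.1 per spot, and made up 5.05%, 10.6% and 11.1% of spots. Over all spots, the gap between Y-Ctrl and the O sections was thus widest in the spots richest in microglial markers. O-Ex lay above O-Ctrl also in spots with none. Ctsd held 2.08, 4.0 and 4.5 UMIs per spot in the richest group and 0.79, 0.92 and 1.22 in spots with none. These ranges pool regions whose shares differ between sections, such as the choroid plexus with 45, 37 and 98 spots. The part of that mix was not tested. In the upper cortical layers alone, spots with 0 microglial UMIs held 10.8, 10.0 and 10.6 UMIs of the 32 genes, with overlapping intervals.

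In white matter alone, spots with 6 or more microglial UMIs held 20.1, 28.7 and 27.7 UMIs of the 32 genes, and made up 17.2%, 42.5% and 51.6% of the spots. Spots with 1 to 2 held 14.2, 16.4 and 17.5, and those with 3 to 5 held 15.2, 19.3 and 18.9. In white matter spots with any microglial UMIs, Y-Ctrl was thus the lowest section in each range. Spots with none were few there, 59, 15 and 15, and held 13.6, 19.5 and 17.2 UMIs. With spots thinned to 5000 UMIs those numbers were 21, 5 and 7 spots with 22.3, 21.8 and 28.4 UMIs, so Y-Ctrl and O-Ctrl were in the other order, with overlapping intervals.

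**Figure D5:**
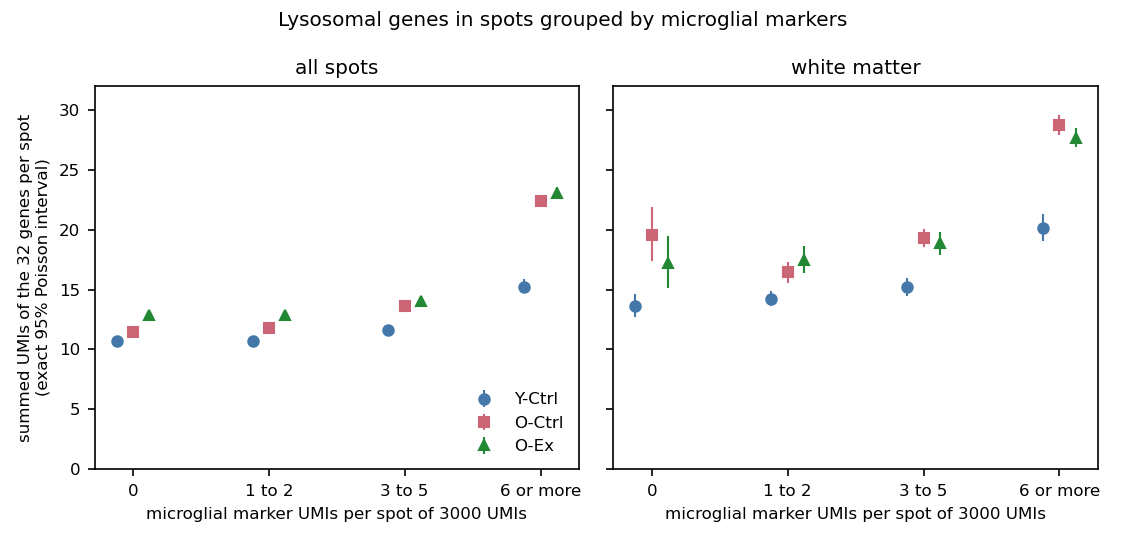
UMIs of the 32 genes per spot, after thinning to 3000 UMIs, in spots grouped by microglial marker UMIs, over all spots and in white matter, with exact 95% Poisson intervals. In spots with 6 or more microglial UMIs the values are 15.3, 22.4 and 23.1 over all spots for Y-Ctrl, O-Ctrl and O-Ex.

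Other genes of the pathway were taken from lists that hold none of the 32. The counts below are region-matched and given first for the controls, then for O-Ex against O-Ctrl and last for O-Ex against Y-Ctrl, beside 50.9%, 74.4% and 71.4% of all genes higher. Of 25 other lysosomal enzymes with at least 10 CPM, 18, 22 and 22 were higher, with medians of 0.10, 0.11 and 0.22. Naaa, an acid amidase, stood at 29.2, 36.5 and 36.8 CPM and Fuca1, the fucosidase, at 35.8, 43.5 and 49.5 CPM. Dpp7, a dipeptidyl peptidase, stood at 12, 14.4 and 20.1 CPM and Ctsc, another cathepsin, at 8.34, 10.7 and 19.5 CPM, both with O-Ex highest. Of 17 other membrane proteins, 15, 15 and 16 were higher, with medians of 0.04, 0.08 and 0.12. Cd68, a macrophage marker, stood at 7.94, 12.7 and 13.4 CPM, and Abca2, a lipid transporter, at 116, 143 and 137 CPM.

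The lists for acidification, delivery, control and autophagy had lower medians than the 31 genes between O-Ctrl and Y-Ctrl and between O-Ex and Y-Ctrl, with scaling by total UMIs only. Of 17 subunits of the proton pump, 11, 12 and 13 were higher, with medians of 0.02, 0.09 and 0.08, close to the 0.00, 0.08 and 0.08 of all genes. Atp6v0b stood at 461, 467 and 421 CPM and Atp6v0a1, another subunit, at 150, 154 and 176 CPM, in opposite directions in O-Ex. Of 19 genes that deliver proteins to lysosomes, 13, 17 and 17 were higher, with medians of 0.04, 0.10 and 0.15. Of 16 genes of transcription and nutrient control, 9, 8 and 10 were higher, which for O-Ex over O-Ctrl is a smaller share than the 74.4% of all genes, and Lamtor4, a part of the complex that anchors mTORC1 to lysosomes, stood lowest in O-Ex, at 155, 149 and 132 CPM. Of 21 autophagy genes, 11, 17 and 15 were higher, with medians of 0.00, 0.06 and 0.09. Cst3, the secreted inhibitor of cysteine cathepsins, stood at 3648, 3814 and 3819 CPM, close to each other in the O sections, and 1 of the 3 inhibitors listed was higher in O-Ctrl than in Y-Ctrl region-matched.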

How the data were processed

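Gene expression was measured in 3 mouse brain sections, 1 each for Y-Ctrl, O-Ctrl and O-Ex, grouped by title and treatment label. The deposited matrices hold raw UMI counts of 31053 genes for 4992 barcodes a section. Per the file headers, Space Ranger 2.0.0 wrote these counts with no normalization. The submitters' processing notes name mm10. Images and positions of spots did not enter. The 32 members and all lists, markers and alternatives were chosen with earlier results of these data known, and the rule for naming regions (at least 3 markers among 30 leading genes) was set with the clusters in view.

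Barcodes with at least 3000 UMIs were kept, which held 97.5% to 98.1% of UMIs. Doublets were not called, because spots cover several cells by design. Spots were clustered with scanpy 1.11.5 (2000 variable genes, leaving out the members, the pathway lists and all cell list genes that are no region markers, scaled within each section, 30 components, 15 neighbours, Leiden resolution 0.8). Counts were summed per section or region and given as CPM. Ratios used a pseudocount of 5 CPM and genes whose mean reached 10 CPM in the sections or region. A region entered a gene's count of regions with at least 20 UMIs over both sections. The comparisons were described with no test, since each group has 1 section. The calculations were tested on simulated data. Levels were compared across sections and regions and not between genes.

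All members were named. From each pathway list the 3 highest and 3 lowest region-matched ratios and the most abundant gene could be named, and from each cell list the 2 most abundant. Positions come from GENCODE vM21, matched by ID. Another gene overlaps Ctsd, Ctsl, Ctss and Glb1 on the same strand. Promoter windows were held for 27 members, and protein features, planned at first, were not analysed here. Alternatives were other UMI minimums, pseudocounts, filters, scalings (TMM with edgeR, median of ratios), clusterings and region weights.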

Additional observations from a re-analysis of the deposited data

Results flagged for a closer look

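Barcodes with fewer than 3000 UMIs took no part in the comparisons, and they also held UMIs of the 32 lysosomal genes. Such barcodes numbered 1583, 1494 and 1660 in Y-Ctrl, O-Ctrl and O-Ex and held 3653, 4079 and 5623 UMIs of these genes. In the same order, that is 3146, 3314.5 and 4217 CPM, with 95% intervals of 3045 to 3250, 3214 to 3418 and 4107 to 4329, where 3 counts would give 2.58, 2.44 and 2.25 CPM. Each value is below the level of the kept spots of its section, and O-Ex was the highest in both. With a minimum of 1000 UMIs, which takes in part of these barcodes, the counts of genes higher over whole sections stayed at 29, 27 and 31 of 31.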

How the results depend on the processing

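Of the summary values for the 3 comparisons and the microglial ranges, 203 moved by less than the spread allowed and 28 moved by more. For O-Ctrl over Y-Ctrl the genes at least 1.2-fold higher numbered 4 with a pseudocount of 20 CPM, in place of 7, and region-matched 7 without border and unnamed regions, in place of 3. For O-Ex over O-Ctrl the whole-section count of 5 genes at least 1.2-fold higher became 8 with a pseudocount of 1 CPM. It became 1 with a pseudocount of 20 CPM, without mitochondrial genes in the scaling, under TMM scaling, under median-of-ratios scaling and without border and unnamed regions, and 0 without choroid plexus spots. Its median of 0.14 became 0.0599 under TMM scaling, 0.0632 under median-of-ratios scaling and 0.0652 without border and unnamed regions, where all genes had 0.0828. There Lamp2 went from 0.27 to -0.0243, Npc2 from 0.14 to -0.153, Cd63 from 0.20 to -0.140, Gm2a from 0.11 to -0.0016 and Scarb2 from 0.01 to -0.0421. Scaling moves all genes alike: the median of the 31 genes less that of all genes was 0.0821, and 0.0731 under TMM scaling, 0.0737 under median-of-ratios scaling and 0.0787 without mitochondrial genes. Region-matched, the count of 4 became 2 at 1000 UMIs and without mitochondrial genes. It became 1 with a pseudocount of 20 CPM, under median-of-ratios scaling, at a clustering resolution of 0.4, with regions weighted by spots and without meninges, and 0 under TMM scaling and without border and unnamed regions, and the median became 0.0779 under TMM scaling. For O-Ex over Y-Ctrl the median of 0.32 became 0.24 under TMM and 0.25 under median-of-ratios scaling. Region-matched it became 0.16 under TMM scaling, with 7 genes at least 1.2-fold higher. In spots with no microglial UMI, another thinning seed gave 0.350% of UMIs in Y-Ctrl and 0.391% in O-Ctrl, against 0.358% and 0.382%. The cause of these changes was not tested. Leaving out white matter, meninges or choroid plexus was chosen after seeing the data.

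No paired analysis was possible because each group has 1 section and the labels carry no replicate numbers, so there was no replicate to leave out. Depth limits the scarce genes most: Gla rests on 356 to 401 UMIs a section.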
